A study of Mus musculus with 10 samples.

Results

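The nucleoplasmins are a small family of acidic histone chaperones, proteins that bind histones and hand them to or take them from DNA. NPM1 is its abundant nucleolar member and also works in ribosome assembly, NPM2 is known in the mouse as the oocyte form that helps to unpack sperm chromatin, and NPM3 is made in many cell types and associates with NPM1. Nucleolin, the product of Ncl, is no nucleoplasmin by sequence, but it is likewise an acidic nucleolar protein, and it binds RNA and acts in the transcription and processing of ribosomal RNA. These 4 genes (Npm1, Npm2, Npm3 and Ncl) were taken by name from the 33006 genes of the count table, and all 4 were found. Of these, 3 passed the filter on low counts and were tested, and Npm2 did not.

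The cells were E14, a line of mouse embryonic stem cells, carrying a form of NPM1 that auxin causes to be degraded. Per the file headers, they were 1 clone, numbered 38. RNA came from 2 libraries with auxin and 2 libraries without it, all harvested 12 h after release from a G1 arrest. All cells, controls included, grew with LIF, the MEK inhibitor PD0325901 (1 µM) and the GSK3 inhibitor CHIR99021 (3 µM). H3K27me3, the repressive histone mark written by Polycomb repressive complex 2, was mapped without auxin by ChIP-seq at 6 h and in control cells by CUT&RUN at 12 h, in 1 sample each. No protein was measured, and the labels do not say how many alleles carry the degron or which promoter drives the rest of the system. Input, IgG, and the H3K27me3 samples with auxin or with auxin and a PRC2 inhibitor were not analysed here.

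The RNA libraries held between 13353446 and 16046290 counted fragments. Replicates varied beyond counting noise: their chi-square divided by its degrees of freedom was 12.0 with auxin and 4.08 without auxin. All 15 embryonic stem cell markers on a list were tested, with summed levels of 8920 to 9038 CPM (counts scaled to a common library size) with auxin and 9281 to 9336 CPM without auxin. Behind these near sums, 5 of them were called higher with auxin and 7 lower by the edgeR test described below. Prdm14 averaged 66.4 CPM with auxin and 40.3 CPM without auxin (1.64-fold higher), Nanog was 1.25-fold higher and Esrrb was 1.32-fold lower. With scaling by library size alone, the lower calls numbered 3. Of 12 fibroblast markers, 7 averaged under 1 CPM, and the whole list summed to 28.2 to 36.8 CPM with auxin and 19.4 to 26.4 CPM without auxin. Among the 6 tested, 1 was called: Pdgfrb averaged 12.1 CPM with auxin and 4.46 CPM without auxin (2.73-fold higher). Of 15 oocyte markers, 11 averaged under 1 CPM. Oosp1 and Zar1 had no fragment in any library. The oocyte list summed to 284 to 308 CPM with auxin and 213 to 228 CPM without auxin, most of it from the receptor Kit, which embryonic stem cells also express. Kit was called 1.49-fold higher, and the 3 other tested oocyte markers were not called. Of 14 markers of differentiated lineages, 12 were tested, and the list summed to 163 to 182 CPM with auxin and 165 to 178 CPM without auxin. Of these, 4 were called higher and 2 lower, and without replicate 1 with auxin the higher calls numbered 7. Cdx2 averaged 10.9 CPM with auxin and 4.48 CPM without auxin (2.42-fold higher), Gata3 averaged 16.3 CPM with auxin and 7.57 CPM without auxin (2.16-fold higher), and Eomes averaged 20.5 CPM with auxin and 57.2 CPM without auxin (2.78-fold lower). The part of these differences in the results below was not tested.

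All 4 genes lie on the minus strand of mm10: Npm1 at chr11:33152287-33163206, Npm2 at chr14:70647302-70653084, Npm3 at chr19:45747734-45749591 and Ncl at chr1:86344719-86359455. The values count fragments over their exons. The 3 nucleoplasmin genes share a surrounding that nucleolin lacks: each has, as the nearest gene past its 3′ end in the deposited annotation, a member of the FGF8 subfamily of growth factors. Fgf18 lies 4.89 kb from Npm1, Fgf17 lies 5.03 kb from Npm2 and Fgf8 lies 4.82 kb from Npm3, all on the minus strand. Ncl carries small nucleolar RNA genes in its introns, among them Snora75 and Snord82. These libraries, made from polyadenylated RNA, held at most 6 fragments of either.

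RefSeq promoters were at hand for 2 of the 4 genes, Npm3 and Ncl, on GRCm38.p6, the assembly that mm10 stands for. They are shown because they were available. Both genes fell with auxin and neither start carried an H3K27me3 peak, which was also true of Npm1. Each line gives the 250 bases before the RefSeq start, 5′ to 3′ on the minus strand, with matches to the GC box GGGCGG or its reverse complement in capitals. The Npm3 window is chr19:45749566-45749815 and the Ncl window is chr1:86359456-86359705. The Npm3 window lies within the antisense gene Gm15491, and the Ncl window also holds the start of a gene on the opposite strand. Motif matches in them therefore cannot be assigned to Npm3 or Ncl alone.
Npm3: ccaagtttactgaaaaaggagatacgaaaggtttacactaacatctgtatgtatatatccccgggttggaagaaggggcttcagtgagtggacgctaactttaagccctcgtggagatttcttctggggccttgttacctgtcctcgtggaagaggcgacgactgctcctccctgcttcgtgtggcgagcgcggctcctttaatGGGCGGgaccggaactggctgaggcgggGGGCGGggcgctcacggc
Ncl: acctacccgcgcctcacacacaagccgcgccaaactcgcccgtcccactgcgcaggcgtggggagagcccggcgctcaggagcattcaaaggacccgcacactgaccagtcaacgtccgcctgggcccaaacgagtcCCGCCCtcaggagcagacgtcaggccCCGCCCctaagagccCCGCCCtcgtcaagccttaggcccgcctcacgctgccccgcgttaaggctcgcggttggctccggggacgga

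The Npm3 window was 56.4% G and C with 17 CG steps, and the Ncl window was 69.6% G and C with 27 CG steps, against medians of 52.4% and 6 over 32851 RefSeq windows of the same length. Npm3 held 2 GC boxes and Ncl held 3, and 32.7% of all windows held at least 1. The E-box CACGTG, the sequence that Myc is known to bind, matched in neither window (6.02% of all windows held it), and neither did CCAAT (33.8%). The aryl hydrocarbon receptor core GCGTG matched 2 times in Ncl and not in Npm3 (28.2% of all windows), and the core TGACG of the cAMP response element likewise 2 times in Ncl and not in Npm3 (17.8%). Both strands were searched, and none of these motifs contains another. The RefSeq start of Npm3 lies 26 bp inside the deposited annotation's, and that of Ncl is the same in both.

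Npm1 and Ncl were among the most abundant transcripts, Npm3 was less abundant but still ranked high, and Npm2 was at the limit of detection. Levels between genes are compared per length, in TPM (counts per kilobase of exon, scaled to the same total in each library) computed from the counts and the deposited exon lengths. Npm1 stood at 782 and 763 TPM with auxin and at 918 and 854 TPM without auxin. Ncl stood at 508 and 521 TPM with auxin and at 642 and 633 TPM without auxin. Npm3 stood at 156 and 168 TPM with auxin and at 190 and 202 TPM without auxin. The order Npm1, Ncl, Npm3, Npm2 held in each of the 4 libraries, with gaps wider than the spread of the libraries. The step between Npm1 and Ncl rests on the annotated length of Ncl, 8257 bases, 5978 of them in 1 exon block, against 2665 bases for Npm1. In raw counts Ncl was above Npm1, by 2.01 and 2.12 times with auxin and by 2.17 and 2.30 times without auxin. Among the 13522 tested genes, Npm1 ranked 113 with auxin and 99 without auxin by mean TPM, Ncl ranked 184 with auxin and 152 without auxin, and Npm3 ranked 847 with auxin and 681 without auxin.

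The comparison of auxin with no auxin asks whether transcripts of the other nucleoplasmins, or of nucleolin, were higher in cells whose NPM1 protein was targeted for degradation. No such rise was detected. Npm1, Npm3 and Ncl all fell with auxin, by 1.25-fold, 1.32-fold and 1.35-fold, and Npm2 stayed at 0 or 1 fragment per library. Each of these 3 falls passed the test across all genes, and the 95% interval of none of them reached 0. In bulk RNA, fewer cells expressing a gene and less of its RNA per cell cannot be told apart. No sample was of auxin-treated cells without the degron, so an effect of auxin itself and one of NPM1 loss cannot be told apart either.

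Npm1, the gene of the targeted protein, had 11429 and 12907 fragments with auxin and 15063 and 14030 fragments without auxin. Scaled with TMM, a correction for library composition, these are 843 and 767 CPM with auxin and 1058 and 951 CPM without auxin. The 2 auxin libraries lie below both others, as they did for 31.8% of all tested genes. Auxin targets NPM1 as a protein, and for that reason its transcript level is no check of the labels. Reads that map equally well to Npm1 and to a processed copy of it elsewhere in the genome cannot be assigned, and the counting command carried no option to count them, so these values may understate Npm1. The log2 fold change was -0.32 (SE 0.06, 95% interval -0.46 to -0.18, edgeR quasi-likelihood test, adjusted p = 0.00337), a transcript level 19.9% lower (interval 11.9 to 27.2%).

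Npm3, the paralog that these cells do express, had 1014 and 1266 fragments with auxin and 1388 and 1474 fragments without auxin. Its scaled levels were 74.8 and 75.2 CPM with auxin and 97.5 and 99.9 CPM without auxin, so replicates lay close together. Both auxin libraries again lay below both others, as for 31.8% of all tested genes. The log2 fold change was -0.40 (SE 0.06, interval -0.53 to -0.26, edgeR adjusted p = 0.000868), a level 24.0% lower (interval 16.6 to 30.8%). A rise of Npm3 relative to the other transcripts lies outside this interval, which covers only the spread between these libraries. Scaled levels do not show the amount of RNA per cell. The antisense gene Gm15491 overlaps the 5′ end of Npm3, but the fragments were counted by strand, and Gm15491 held only 7 to 11 of them per library.

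Npm2, the oocyte paralog, had 1 and 1 fragments with auxin and 0 and 0 fragments without auxin. A single fragment has an exact 95% Poisson interval of 0.0253 to 5.57, and a count of 0 has one that reaches 3.69, so the intervals overlap and no difference was detectable at this depth. These upper bounds correspond to 1.02 and 0.881 TPM with auxin and to 0.601 TPM in each library without auxin. As shares of the Npm1 level they are 0.130% and 0.115% with auxin and 0.0655% and 0.0703% without auxin. The bounds cover counting error only. No fold change is given for Npm2, since no library held more than 3 fragments of it.

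Ncl had 22974 and 27318 fragments with auxin and 32664 and 32199 fragments without auxin. The scaled levels were 1694 and 1623 CPM with auxin and 2295 and 2183 CPM without auxin. Here too both auxin libraries lay below both others, as for 31.8% of all tested genes. Its log2 fold change of -0.43 (SE 0.05, interval -0.54 to -0.32, edgeR adjusted p = 0.000149) is a level 25.9% lower (interval 20.1 to 31.4%). The intervals of Npm1, Npm3 and Ncl overlap one another, and the ratios of Npm3 and of Ncl to Npm1 are tested further on.

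**Figure D1:**
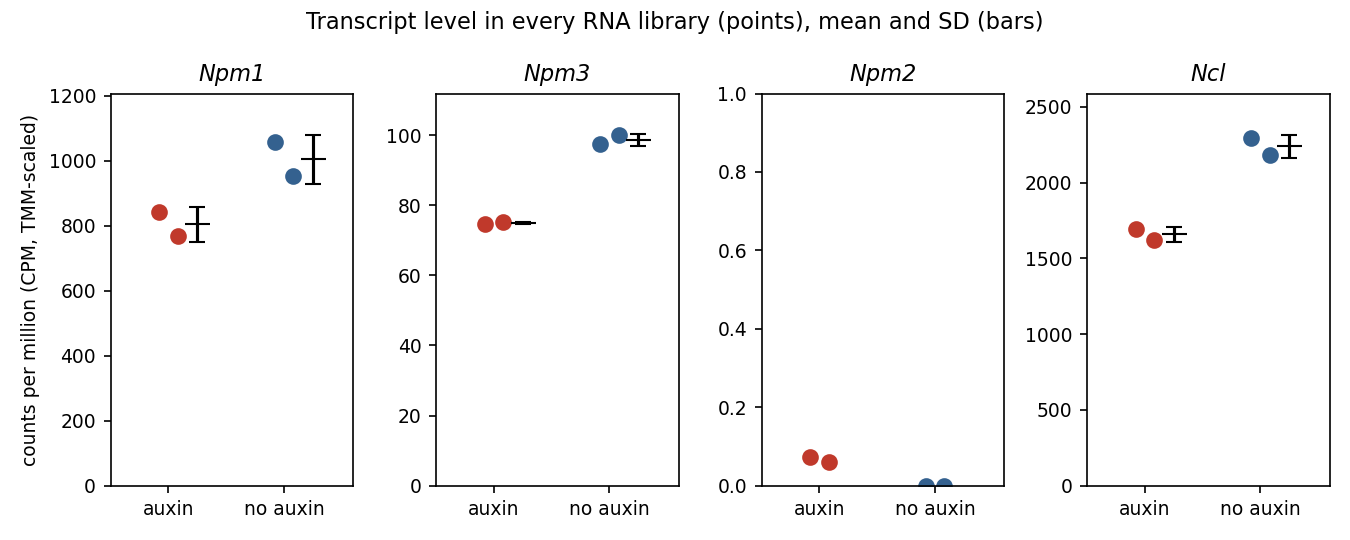
Levels of Npm1, Npm3, Npm2 and Ncl in CPM (vertical axes, each starting at 0 and with its own scale) in the auxin libraries (red, left) and the libraries without auxin (blue, right). Points are libraries, and bars give the mean and SD of 2 libraries except for Npm2, which had 1 fragment in each auxin library and none without auxin. For the other genes both auxin points lie below both points without auxin, as held for 31.8% of all tested genes.

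Falls of this kind were frequent among abundant transcripts. Of the 13522 tested genes, 1964 (14.5%) were called lower with auxin and 1759 (13.0%) higher, and both auxin libraries lay below both others in 31.8% of the tested genes. Among the 10% of tested genes with the highest CPM, which hold Npm1 and Ncl but not Npm3, 51.8% were called lower and 8.65% higher. The median log2 fold change was 0.01 over all tested genes and -0.17 over those 1353 abundant genes. All 3 tested members were lower, with fold changes below the interquartile range of the abundant genes, which ran from -0.26 to -0.03. A call of lower with a fold change at or below that of Ncl was made for 476 of all tested genes (3.52%). The same share was not computed for Npm1 or Npm3, nor within the abundant genes. All 3 members remained called lower under each of 11 other settings. The smallest falls were -0.23 for Npm1, -0.30 for Npm3 and -0.34 for Ncl, all with scaling by library size alone. That scaling also changed the balance of calls, of which 73.5% were then higher, against 47.2% with TMM.

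**Figure D2:**
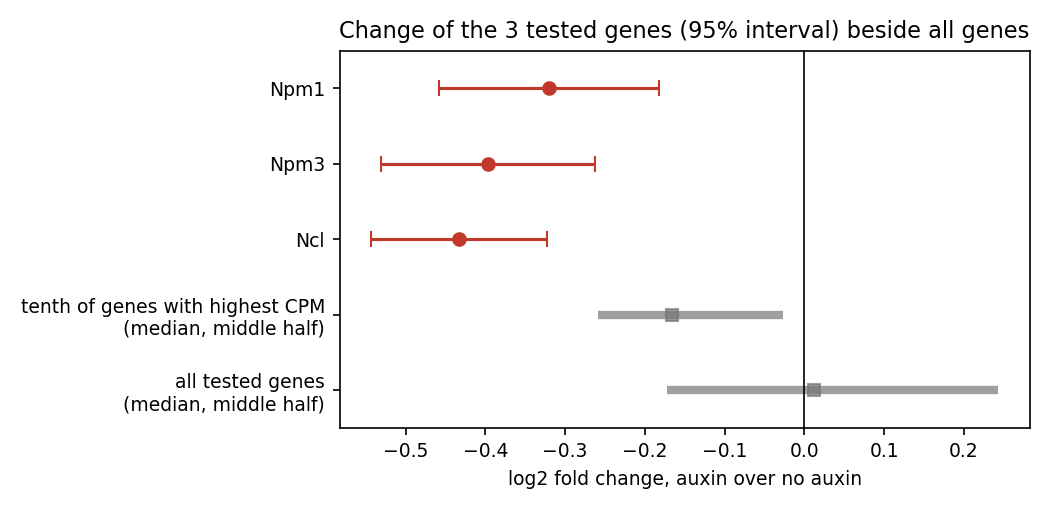
Log2 fold change of auxin over no auxin (horizontal axis) for Npm1, Npm3 and Ncl with 95% intervals, above the median and interquartile range of the 1353 most abundant tested genes and of all 13522. The 3 intervals lie wholly below 0, and the 3 estimates lie below the interquartile range of the abundant genes.

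With 2 libraries a group, the exact test of the makeup of the nucleoplasmin transcript pool could not reach the threshold, so its values are described. Npm3 amounted to 19.9% and 22.0% of the Npm1 level with auxin and to 20.7% and 23.6% without auxin, in TPM, and these ranges overlap. The size of this share rests on annotated exon lengths of 2665 bases for Npm1 and 1187 bases for Npm3. In raw counts it was 8.87% and 9.81% with auxin and 9.21% and 10.5% without auxin. Npm1 made up 83.4% and 81.9% of the summed TPM of Npm1, Npm2 and Npm3 with auxin, and 82.9% and 80.9% without auxin. The sum itself was 938 and 931 TPM with auxin and 1108 and 1056 TPM without auxin. Its mean was 13.6% lower with auxin in TPM and 20.6% lower in TMM-scaled CPM per kilobase. The Npm1 level differed by 113 TPM between the group means, against a whole Npm3 level of 162 TPM with auxin and 196 TPM without auxin. The ratio of Ncl to Npm1, per length, was 0.649 and 0.683 with auxin and 0.700 and 0.741 without auxin, without overlap. On the log2 scale the ratio of Npm3 to Npm1 differed by -0.08 between auxin and no auxin (exact permutation test, two-sided, p = 0.667), and that of Ncl to Npm1 by -0.11 (p = 0.333). After Benjamini-Hochberg adjustment over these 2 ratios both exact p-values were 0.667. The smallest p that 2 against 2 libraries allow is 0.333, so the threshold could not be reached. These tests therefore cannot decide whether the ratios differed.

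By their profile over the 4 libraries, each centred on its own mean in log2 CPM, the closest of 9366 other genes to Npm1 were Usp39, a splicing factor, Cinp and the syntaxin Stx3 (root mean square difference 0.00606, 0.00754 and 0.00785). The closest to Npm3 were Gart, an enzyme of purine synthesis, the cyclin Ccnd3 and Urb2, a ribosome biogenesis factor (0.00480, 0.00577 and 0.00578). The closest to Ncl were the translation factor Eif5a, Tmem39b and the translation initiation factor subunit Eif3l (0.00490, 0.0109 and 0.0123). With 4 libraries in 2 groups, this likeness is mostly a like difference between the groups.

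Genes that work beside these members were also often called lower, and so were abundant genes at large. That call was made for 14.5% of all tested genes and for 51.8% of the tenth with the highest CPM. Among 24 tested genes of ribosomal RNA synthesis and nucleolin's early processing partners, 18 fell, none rose and 6 were not called (median log2 fold change -0.32, against 0.01 over all tested genes). Heatr1, which acts in ribosomal RNA transcription and processing, had 256 and 255 CPM with auxin and 376 and 373 CPM without auxin (log2 fold change -0.55, SE 0.05, edgeR adjusted p = 1.85e-05). Nolc1, a nucleolar phosphoprotein, had 300 and 307 CPM with auxin and 450 and 430 CPM without auxin (log2 fold change -0.54, adjusted p = 2.81e-05). Taf1a, a subunit of the RNA polymerase I selectivity factor, had only 8.63 and 8.79 CPM with auxin and 12.6 and 11.3 CPM without auxin (log2 fold change -0.46, adjusted p = 0.0293). Its call was lost under 5 of the 11 other settings (adjusted p up to 0.156), among them without replicate 1 with auxin (0.0631), without replicate 2 with auxin (0.0672) and without replicate 1 of the libraries without auxin (0.140).

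Of 26 listed partners of NPM1, 20 fell, 1 rose and 5 were not called (median -0.27). Trp53, the p53 tumour suppressor whose regulation NPM1 takes part in, had 510 and 467 CPM with auxin and 685 and 639 CPM without auxin (log2 fold change -0.44, SE 0.06, edgeR adjusted p = 0.000303). Gnl3, which encodes nucleostemin, fell 1.33-fold, and the RNA helicase Ddx21 fell 1.31-fold. Mdm2, the ubiquitin ligase that acts on p53, had 306 and 340 CPM with auxin and 266 and 283 CPM without auxin (log2 fold change 0.24, adjusted p = 0.0136), a call lost without replicate 2 with auxin (0.0746) and without replicate 1 of the libraries without auxin (0.0933). Leaving out that last library also reduced the falls on this list to 13. Cdkn2a, whose product ARF binds NPM1, was not called (log2 fold change 0.16, adjusted p = 0.376).

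Of 25 other histone chaperones, 14 fell, none rose and 11 were not called (median -0.22). Atrx, a chromatin remodeller that places histone H3.3 with Daxx, had 211 and 207 CPM with auxin and 317 and 301 CPM without auxin (log2 fold change -0.56, SE 0.05, edgeR adjusted p = 2.81e-05). Supt16, a subunit of the FACT complex, fell 1.33-fold, and Ipo4, an importin that carries histones, fell 1.30-fold. Nap1l1, another acidic chaperone, was not called (log2 fold change -0.16, adjusted p = 0.0743).

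Npm1 and Ncl are known targets of Myc, the transcription factor of cell growth. A part of Myc in the falls of Npm1, Npm3 and Ncl was not tested. Of 22 genes of the Myc network and its known targets, 13 fell, 1 rose and 8 were not called (median -0.26). Myc itself had 26.5 and 27.8 CPM with auxin and 63.1 and 61.1 CPM without auxin, a 2.28-fold fall (log2 fold change -1.19, SE 0.08, edgeR adjusted p = 2.70e-06) that held under all 11 other settings. The lactate dehydrogenase gene Ldha fell 1.42-fold and Odc1, for ornithine decarboxylase, fell 1.36-fold. Mxd1, an antagonist of Myc, rose to 10.2 and 12.0 CPM with auxin, against 7.24 and 8.75 CPM without auxin (adjusted p = 0.0425), but lost its call with DESeq2 (0.209), without replicate 2 with auxin (0.224) and without replicate 1 of the libraries without auxin (0.203). With scaling by library size alone, the falls numbered 11 for ribosomal RNA synthesis, 13 for the partners of NPM1, 9 for the histone chaperones and 8 for the Myc list. The higher calls were then 0 for ribosomal RNA synthesis, 1 for the partners of NPM1, 2 for the histone chaperones and 2 for the Myc list. The background of the main test, with TMM, was 14.5% of all tested genes and 51.8% of the most abundant ones lower. In that test, the shares that fell on the histone chaperone and Myc lists were near the latter value. By library size alone, 988 of the 13522 tested genes were lower, and the share among the most abundant was not computed. The genes of these lists were chosen by known role and are mostly abundant.

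**Figure D3:**
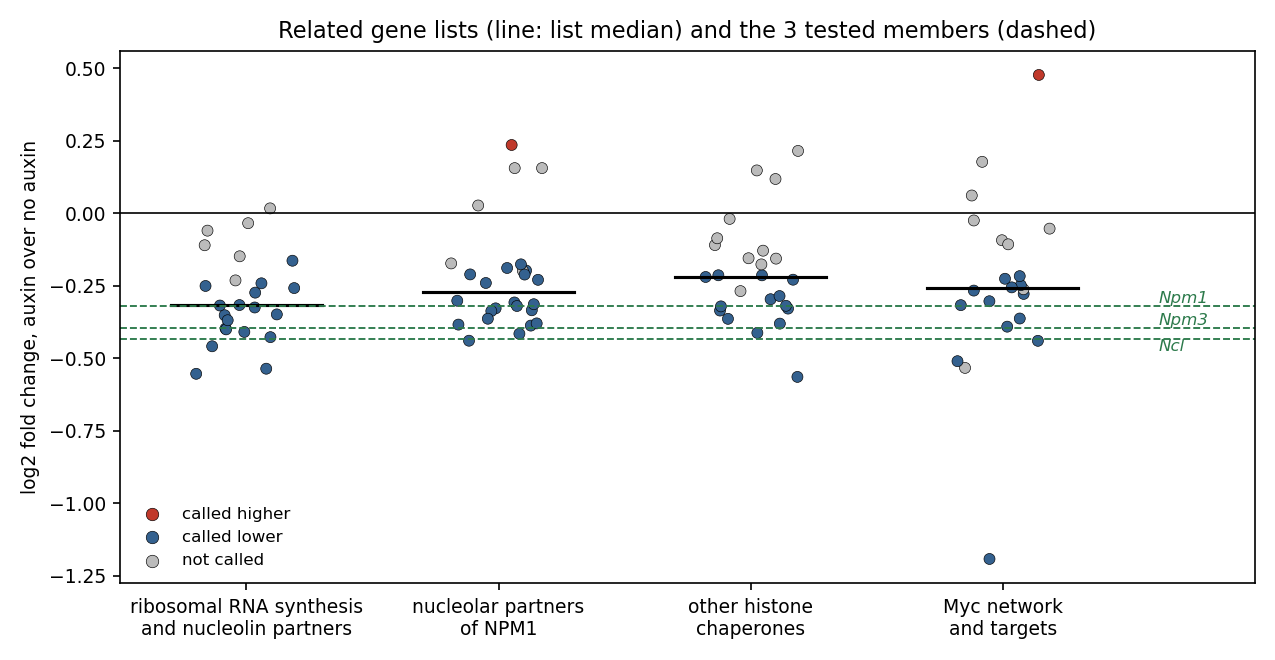
Log2 fold change of auxin over no auxin (vertical axis) for each tested gene of the 4 related lists (horizontal axis), coloured by its call, with a line at each list's median. Dashed lines mark Npm1, Npm3 and Ncl, all below the 4 medians of -0.32 to -0.22, and the lowest point, at -1.19, is Myc.

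H3K27me3 peaks of control cells surrounded Npm1 and stood beside Npm3 and Ncl, but none lay at the start or over the body of any of the 4 genes in either assay. Over all 32743 placed genes, 9.16% had a ChIP-seq peak and 13.3% a CUT&RUN peak within 1 kb of the 5′ end, and 17.0% had a ChIP-seq peak and 23.8% a CUT&RUN peak over the gene body, so that absence is the common state. Of peaks with a −log10 q of at least 2, 4.64% of placed genes had one by ChIP-seq and 4.58% one by CUT&RUN within 1 kb. The absence held at the RefSeq 5′ ends too, of which that of Npm2 lies 8718 bp upstream of the deposited one. Npm2, although almost silent, was the member farthest from the mark, with no peak within 50 kb in either assay. Its nearest peaks were 73.2 kb (ChIP-seq) and 93.9 kb (CUT&RUN) downstream of its 5′ end. Within 50 kb of a gene, 52.0% of all placed genes had a ChIP-seq peak and 64.6% a CUT&RUN peak.

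Npm1 lay in a gap between marked neighbours. Within 50 kb of the gene there were 30 ChIP-seq peaks and 13 CUT&RUN peaks. Fgf18, past its 3′ end, carried 15 of the ChIP-seq peaks and 7 of the CUT&RUN peaks, and the widest of these CUT&RUN peaks spanned 6548 bp. Upstream, on the side of the homeobox gene Tlx3, there were 10 ChIP-seq and 4 CUT&RUN peaks, of which 2 ChIP-seq peaks lay over Tlx3. The stretch around the Npm1 5′ end that was free of peaks spanned 29.0 kb in ChIP-seq and 45.0 kb in CUT&RUN. Fgf18 averaged 1.07 CPM with auxin and 1.21 CPM without auxin, and Tlx3 averaged 2.41 CPM with auxin and 2.34 CPM without auxin, and neither was called (edgeR adjusted p = 0.773 and 0.911).

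Npm3 had all its nearby peaks on the side of Fgf8. There were 8 ChIP-seq peaks and 2 CUT&RUN peaks within 50 kb, the nearest 4.58 kb and 7.26 kb downstream of its 5′ end. Over Fgf8 lay 3 ChIP-seq peaks and 1 CUT&RUN peak of 6667 bp, whose fold enrichment was 3.39 by the authors' peak caller. Upstream of Npm3 no peak appeared for 366 kb in either assay. Fgf8 had between 6 and 11 fragments in each library and was not tested. Around Ncl, 3 ChIP-seq peaks and 4 CUT&RUN peaks lay upstream, the nearest 24.0 kb and 18.8 kb from its 5′ end, with 1 of each over Nmur1, a receptor gene with no fragment in any RNA library. With a single sample per assay no replicate check was possible, and the peak lists do not give the read depth.

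**Figure D4:**
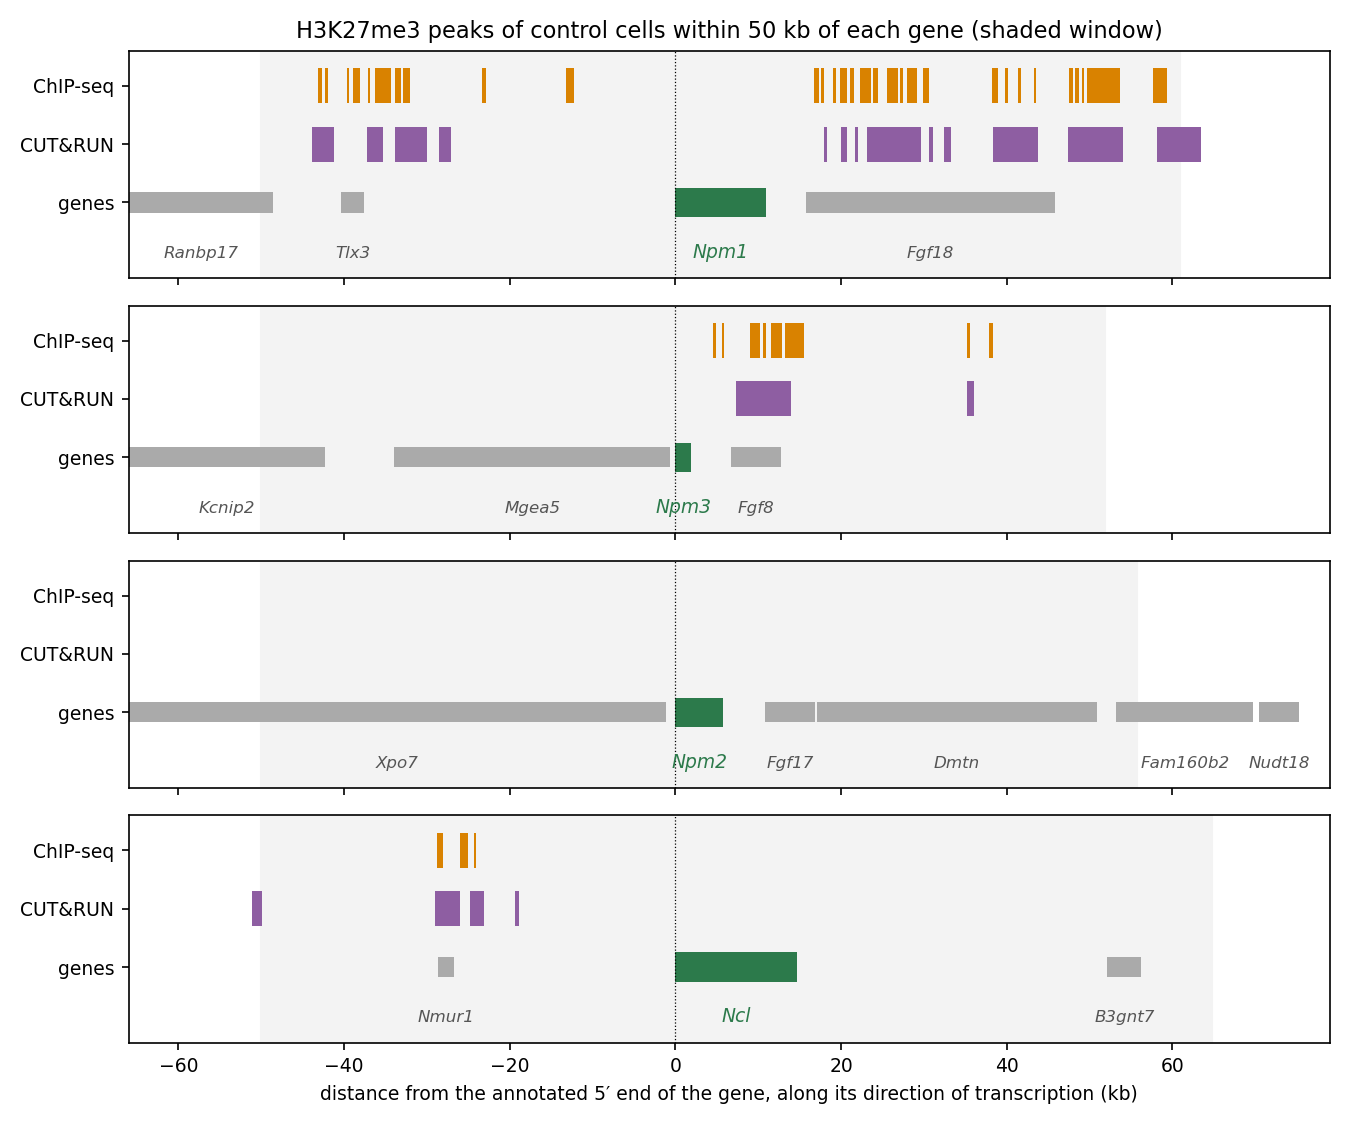
H3K27me3 peaks by ChIP-seq (orange) and CUT&RUN (purple) within 50 kb of Npm1, Npm3, Npm2 and Ncl (green), with neighbouring genes in grey (predicted and RNA genes left out), against distance from each gene's 5′ end in kb along its transcription. Peaks flank Npm1 on either side, stand downstream of Npm3 over Fgf8 and upstream of Ncl, and are missing from the window of Npm2, while no peak touches any of the 4 genes.

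The genes next to the members were called in both directions, at shares near those of all tested genes. Of 28 genes within 100 kb of a member, 18 were tested, and 4 were called lower and 2 higher, against 14.5% and 13.0% of all tested genes. The steepest fall was that of B3gnt7, a glycosyltransferase gene 37.4 kb from Ncl, which had 31.0 and 31.5 CPM with auxin and 74.7 and 68.4 CPM without auxin (log2 fold change -1.19, SE 0.08, edgeR adjusted p = 2.70e-06). The gene 9130011E15Rik, 68.6 kb from Npm3, had 27.6 and 27.6 CPM with auxin and 44.0 and 46.4 CPM without auxin (log2 fold change -0.71, adjusted p = 0.000142). Ranbp17, a nuclear transport receptor gene near Npm1, fell 1.24-fold. Mgea5, the O-GlcNAcase gene whose 3′ end lies 0.670 kb from the start of Npm3, missed the threshold (log2 fold change -0.27, adjusted p = 0.0508).

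Around the silent Npm2, its neighbours were expressed. Xpo7, an exportin gene whose 3′ end lies 1.16 kb upstream of the deposited Npm2 start, had 157 and 140 CPM with auxin and 179 and 171 CPM without auxin (log2 fold change -0.24, edgeR adjusted p = 0.0151). This call was lost with scaling by library size (0.0849), without replicate 2 with auxin (0.121) and without replicate 1 of the libraries without auxin (0.0758). Dmtn, for an actin-binding protein, had 139 and 122 CPM with auxin and 117 and 98.2 CPM without auxin (log2 fold change 0.28, adjusted p = 0.0345), a call lost with DESeq2, without replicate 1 with auxin and without replicate 2 of the libraries without auxin. Fam160b2 rose 1.22-fold (adjusted p = 0.0174), which was lost with DESeq2 and without replicate 2 of the libraries without auxin. Fgf17 had 7.08 and 7.60 CPM with auxin and 5.06 and 5.97 CPM without auxin and was not called (log2 fold change 0.41, adjusted p = 0.0956).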

How the data were processed

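Counts are raw fragments per gene name, which the authors made with featureCounts 1.6.3 (paired, reverse strand, exons, an mm10 annotation), per the file headers. The submitters' processing notes name STAR 2.6.1d, Bowtie2 2.4.1 and MACS2 2.1.1, with no role given. The deposited peak lists hold, for each broad peak of 1 sample, its score, fold enrichment, −log10 p-value and −log10 q-value. Control library and cutoff: not given in the sources used here. Their smallest −log10 q was 1.02 (ChIP-seq) and 1.00 (CUT&RUN).

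The test, auxin against no auxin, was that of edgeR 4.0.16 under R 4.3.3 (TMM, default expression filter, quasi-likelihood F test, two-sided, Benjamini-Hochberg over 13522 genes, threshold 0.05), run on the counts and checked on simulated counts. SE was obtained by dividing the absolute log2 fold change by √F. CPM uses TMM-scaled library sizes, and TPM the deposited exon lengths. No label says that replicates were separate cultures, so p-values measure only the spread between libraries, which may be technical. Ratios were compared by exact permutation of libraries. A gene's 5′ end is the outer end of its exons.

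The members, gene lists and tests were chosen with earlier results of these data known. Named beside the members were, from each list, the 3 called genes with the largest change in each direction, the called genes within 100 kb (any overlap), and the 3 tested genes of at least 3 mean log2 CPM closest in profile. Fgf18, Fgf17, Fgf8, Tlx3, Mgea5, Cdkn2a, Nap1l1, Nmur1, Gm15491, Snora75, Snord82, Pdgfrb, Kit, Oosp1, Zar1, Prdm14, Nanog, Esrrb, Cdx2, Gata3 and Eomes fall outside this rule and were named after their values were seen. Alternatives were other scalings and filters, DESeq2 1.42.0, a replicate block, leaving out each library, and for peaks a stricter q and a wider window.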

Additional observations from a re-analysis of the deposited data

How the results depend on the processing

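Npm1, Npm3 and Ncl were called lower under all 11 alternatives run. Leaving out 1 library at a time gave log2 fold changes of -0.40 to -0.24 for Npm1 (adjusted p up to 0.0236), -0.42 to -0.38 for Npm3 and -0.47 to -0.40 for Ncl. The lone library of a group was then assumed to vary like the others. The number of genes called moved more. Against 1759 higher and 1964 lower, scaling by library size gave 2735 higher and 988 lower, DESeq2 gave 881 higher, and leaving out 1 library gave 1225 to 1705 higher and 1257 to 1914 lower. A replicate block gave 2972 higher and 3177 lower. No label pairs the replicate numbers, and same-numbered libraries deviated from their group means with a correlation of 0.27 across genes. Npm3 as a share of Npm1 was 9.34% with auxin and 9.86% without auxin in raw counts, which ignore gene length. With 5 kb windows, 1 ChIP-seq peak lay near the Npm3 start, and no other member's count moved. Peaks of at least 2 in −log10 q gave 0 at every start. Of the other named genes, Cinp lost its call under 4 settings, Stx3 under 2 and Usp39 under 1. The depth did not allow a comparison of Npm2, for which no alternative is given. The causes of these shifts were not tested.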
